A study of Mus musculus with 7 samples.

Results

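The genes described here carry phosphate bond energy from the mitochondrion to the contractile apparatus of the heart, together with myoglobin. The 10 genes were chosen by name: the creatine kinases Ckm, Ckb and Ckmt2, the oxygen-binding protein gene Mb, the mitochondrial carriers Slc25a4, Slc25a5 and Slc25a3, the creatine transporter Slc6a8, the adenylate kinase Ak1 and the outer membrane channel Vdac1. All 10 were found among the 56980 genes of the deposited table, and all 10 were among the 11431 genes tested. The tissue was myocardium of male wild-type C57BL/6J mice obtained at 8 weeks of age and sampled 4 days after surgery. In the myocardial infarction (MI) group, 3 mice had the left coronary artery ligated, and in the sham group 4 mice had the same operation without ligation. Each mouse gave 1 RNA library, and the study used these libraries to look for genes of vessel growth that change after MI. How much of each sampled piece was infarcted is not given in the sources used here.

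In a heart muscle cell, ATP made in the mitochondrion leaves the matrix through an adenine nucleotide translocase, and mitochondrial creatine kinase passes its phosphate to creatine. Phosphocreatine then diffuses to the myofibrils, where cytosolic creatine kinase makes ATP again beside the myosin heads. Heart muscle cells take up creatine from the blood through a sodium-dependent transporter. Adenylate kinase is a parallel route of phosphate transfer, and myoglobin binds oxygen in the cytosol of heart and slow skeletal muscle. The M subunit of cytosolic creatine kinase and the heart-type translocase belong to striated muscle, while the B subunit and the translocase of Slc25a5 are found in many other cell types.

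Library depth, recovered from the steps of the deposited values, was 19977713 to 23610870 fragments, and did not separate the groups. By the means of the marker genes below, the MI library of replicate 2 lay nearer to the sham libraries than the other MI libraries did. The mean of 14 cardiomyocyte genes stood within 0.03 of the sham mean on the log2(FPKM + 1) scale in each sham library, at -0.84 in MI replicate 1, at -0.033 in MI replicate 2 and at -0.64 in MI replicate 3. The mean of 8 fibroblast genes stood at 3.63, 0.72 and 3.37 in the same MI mice, and that of 8 macrophage genes at 2.20, 0.082 and 1.93. Fragments of mitochondrially encoded genes made up 26.5% to 27.4% of sham libraries, and 13.6%, 28.2% and 14.9% of the MI libraries. The comparisons of the 10 genes are therefore given with and without MI replicate 2. That mouse was set apart after its values were seen. The p-values without it therefore tend to be too small, and are given as description. In bulk tissue, fewer cells of a type and less RNA per cell cannot be told apart.

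The start regions of the 5 genes whose isoform shares are compared below are shown first, since these are pairs and a trio of related enzymes that stand at very different levels in the same tissue. Each is the RefSeq window of 250 bases before to 50 bases after the gene start on GRCm38.p6, written 5′ to 3′ on the gene's strand. The RefSeq start of Ckm lies inside the longer gene that GENCODE M21 gives, downstream of its first base. Capitals mark matches on either strand to the TATA box letters TATAAA, the CCAAT box, the GC box letters GGGCGG, the E-box letters CAGCTG, the letters AAGGTCA bound by some nuclear receptors, the MEF2 site and the CArG box. In order, the windows are those of Ckm (chr7:19410844-19411143, plus strand), Ckb (chr12:111672289-111672588, minus strand), Ckmt2 (chr13:91876836-91877135, minus strand), Slc25a4 (chr8:46211013-46211312, minus strand) and Slc25a5 (chrX:36795347-36795646, plus strand).
Ckm: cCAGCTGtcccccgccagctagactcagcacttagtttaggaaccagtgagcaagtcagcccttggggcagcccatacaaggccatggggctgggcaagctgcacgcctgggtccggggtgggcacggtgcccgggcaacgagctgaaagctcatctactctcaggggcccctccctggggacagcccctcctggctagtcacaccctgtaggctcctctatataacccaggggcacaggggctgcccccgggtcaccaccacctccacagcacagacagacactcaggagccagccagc
Ckb: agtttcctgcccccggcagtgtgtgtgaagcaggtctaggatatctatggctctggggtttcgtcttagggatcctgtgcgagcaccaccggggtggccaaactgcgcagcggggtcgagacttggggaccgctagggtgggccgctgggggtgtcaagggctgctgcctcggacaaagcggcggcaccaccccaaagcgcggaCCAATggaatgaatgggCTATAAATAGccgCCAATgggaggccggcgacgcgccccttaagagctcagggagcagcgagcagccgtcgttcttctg
Ckmt2: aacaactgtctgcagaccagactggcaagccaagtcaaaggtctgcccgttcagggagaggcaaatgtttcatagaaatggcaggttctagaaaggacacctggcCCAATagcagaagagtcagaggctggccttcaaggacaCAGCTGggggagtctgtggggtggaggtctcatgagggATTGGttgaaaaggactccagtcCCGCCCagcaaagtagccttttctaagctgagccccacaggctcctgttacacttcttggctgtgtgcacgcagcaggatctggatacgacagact
Slc25a4: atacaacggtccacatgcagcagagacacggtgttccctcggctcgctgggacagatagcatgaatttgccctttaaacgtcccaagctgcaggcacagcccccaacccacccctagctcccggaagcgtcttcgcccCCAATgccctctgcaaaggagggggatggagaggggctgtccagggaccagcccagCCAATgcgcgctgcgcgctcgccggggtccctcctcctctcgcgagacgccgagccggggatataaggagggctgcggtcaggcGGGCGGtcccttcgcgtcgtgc
Slc25a5: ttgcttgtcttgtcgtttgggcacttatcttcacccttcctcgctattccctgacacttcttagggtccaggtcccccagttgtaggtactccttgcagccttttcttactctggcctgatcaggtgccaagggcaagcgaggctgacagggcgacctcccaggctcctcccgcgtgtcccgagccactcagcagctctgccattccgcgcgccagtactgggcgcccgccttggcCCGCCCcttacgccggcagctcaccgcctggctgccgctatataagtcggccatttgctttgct

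The windows differed in these letters. The Ckm window held 1 CAGCTG, which reads the same on both strands, and no match to the other motifs. The Ckb window held 1 TATAAA that lies inside its 1 match to the MEF2 site, with 2 CCAAT, of which 1 lies before and 1 after it. The Ckmt2 window held 2 CCAAT (1 of them on the opposite strand), 1 GGGCGG on the opposite strand and 1 CAGCTG. The Slc25a4 window held 2 CCAAT and 1 GGGCGG, and that of Slc25a5 held 1 GGGCGG on the opposite strand. Of all 32851 RefSeq windows of this length, 13.6% held TATAAA, 37.4% CCAAT, 35.7% GGGCGG, 16.3% CAGCTG, 4.72% AAGGTCA, 3.19% the MEF2 site and 1.63% the CArG box. For 9 of the 10 genes at least 1 window was found, 15 in all, and at least 1 window held TATAAA for 2 genes, CCAAT for 4, GGGCGG for 5, CAGCTG for 4, AAGGTCA for 2, the MEF2 site for 2 and the CArG box for 0. Genes with several windows have more chances of a match, and in the first window of each of the 9 genes the counts were 1 for TATAAA, 4 for CCAAT, 4 for GGGCGG, 3 for CAGCTG, 0 for AAGGTCA, 1 for the MEF2 site and 0 for the CArG box. These are matches of letters, not measured binding sites.

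In sham myocardium the 10 genes covered a wide range of levels per gene length. Mean FPKM (fragments per kilobase of gene length, scaled by the fragments of the library) was 1725 ± 372 for Mb (SD, n = 4 sham mice), 1600.5 ± 90.5 for Slc25a4, 1328 ± 105 for Ckmt2 and 692 ± 49.9 for Ckm. It was 263 ± 2.55 for Vdac1, 159 ± 7.45 for Slc25a3, 86.3 ± 5.85 for Ak1, 82.2 ± 4.85 for Slc25a5, 11.5 ± 3.26 for Slc6a8 and 8.85 ± 0.36 for Ckb. In this order, the ranges over sham mice of Mb and Slc25a4, of Ak1 and Slc25a5, and of Slc6a8 and Ckb overlapped, and each other neighbouring pair was apart. The muscle forms therefore led and the creatine transporter and the B subunit stood last. The order of FPKM depends on the gene lengths behind the deposited values, which were longer than the GENCODE M21 exons for 9 of the 10 genes (by 2.35 times for Ak1, 2.23 times for Mb and 1.97 times for Ckb). With M21 lengths the sham order of means was the same, with Mb at 3839 ± 829 now apart from Slc25a4 at 1845 ± 104.

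**Figure D1:**
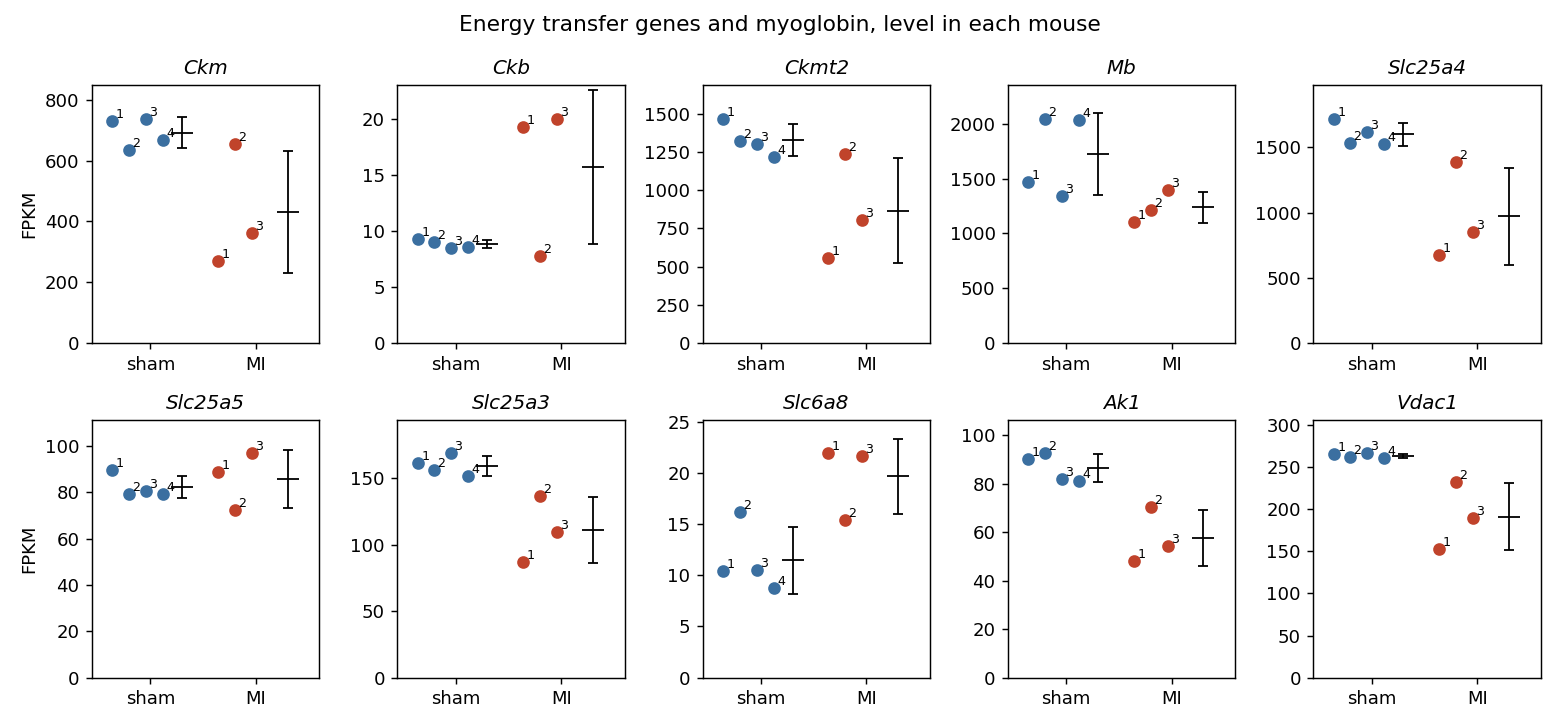
FPKM of the 10 genes (vertical axes from 0) in each sham mouse (blue) and MI mouse (red), with the replicate number beside each point and the group mean ± SD in black. MI replicate 2 stands near the sham mice for Ckm (656) and Ckb (7.76), away from MI replicates 1 and 3.

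The cytosolic creatine kinases came first in the comparison between groups. Ckm, the gene of the M subunit (ENSMUSG00000030399, chr7:19404776-19422841, GRCm38, plus strand), stood at 729.5, 635, 738 and 667 FPKM in the sham mice and at 271, 656 and 363 FPKM in MI replicates 1, 2 and 3. MI replicates 1 and 3 thus stood at 39.2% and 52.4% of the sham mean and MI replicate 2 inside the sham range, so the groups overlapped. The log2 fold change of Ckm between MI and sham was -0.78 (SE 0.29, limma, adjusted p = 0.11 over all genes tested), and without MI replicate 2 it was -1.14 (SE 0.12, adjusted p = 0.000203). Without MI replicate 1 it was -0.50 (adjusted p = 0.335). The exons of Ckm share 451 bases with an antisense transcript, A930016O22Rik, which stood at a mean of 0.90 FPKM in sham mice.

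Ckb, the gene of the B subunit (ENSMUSG00000001270, chr12:111669361-111672338, minus strand), stood the other way in the same mice. It stood at 9.26, 9.03, 8.49 and 8.61 FPKM in the sham mice and at 19.3, 7.76 and 20.1 FPKM in the MI mice. MI replicates 1 and 3 stood at 218% and 227% of the sham mean, and MI replicate 2 below every sham mouse. These levels rest on 981 to 1184 fragments per sham library and on 2399, 1002 and 2700 fragments in the MI libraries. The log2 fold change of Ckb was 0.66 (SE 0.30, limma, adjusted p = 0.136), and 1.07 without MI replicate 2 (SE 0.059, adjusted p = 1.3e-05). The processed pseudogenes Ckb-ps1 and Ckb-ps2 were listed at 0.

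Within a mouse the B gene made up a small share of cytosolic creatine kinase transcript, which was higher in MI replicates 1 and 3. Ckb was 1.25%, 1.40%, 1.14% and 1.28% of the summed FPKM of Ckm and Ckb in the sham mice, and 6.65%, 1.17% and 5.23% in the MI mice. The within-mouse log2 ratio of Ckb to Ckm was higher by 1.44 in MI than in sham mice, with an exact two-sided permutation p of 0.229 (0.366 after Benjamini-Hochberg adjustment over the 8 ratios tested). With 3 against 4 mice there are 35 splits, and the two-sided p used here doubles the smaller tail. The smallest p is then 0.0571, so no ratio could pass 0.05. With M21 gene lengths the share was 1.92% to 2.36% in sham mice and 10.8%, 1.97% and 8.59% in MI mice.

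Fibroblast and macrophage markers were, like Ckb, high in MI replicates 1 and 3. In MI replicate 2, where Ckb was below every sham mouse, the mean of the fibroblast genes was still above the sham mice, at 0.72 against at most 0.12 on the log2 scale. The macrophage mean of that mouse, at 0.082, lay inside the sham range of -0.18 to 0.11. Its endothelial mean, at -0.13, lay below the sham mice, and its smooth muscle mean, at 0.086, above them. All 8 fibroblast genes and all 8 macrophage genes tested were higher in MI mice at an unadjusted p under 0.05, against 29.5% of all genes tested, and none passed after adjustment. The summed level of the fibroblast genes was 122 to 145 FPKM in sham mice and 232 to 2492 FPKM in MI mice, and that of the macrophage genes 217 to 273 and 259 to 1415 FPKM. Of the smooth muscle genes, 2 of the 4 tested were higher at that p, with sums of 65.5 to 90.7 and 66.8 to 225 FPKM, and none of the 5 neuron and glia genes was high enough to test, with sums of 1.56 to 1.89 and 1.87 to 7.89 FPKM. Of the 6 endothelial genes, 0 were higher at that p, with sums of 124 to 144 and 116 to 164 FPKM. The part of these cell types in the level of Ckb was not tested.

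Mitochondrial creatine kinase stood in a like proportion to the M subunit gene in every mouse. Ckmt2, which encodes the sarcomeric mitochondrial form (ENSMUSG00000021622, chr13:91853387-91876885, minus strand), stood at 1469, 1323, 1303 and 1216 FPKM in the sham mice and at 557, 1236 and 808 FPKM in the MI mice. MI replicates 1 and 3 were below every sham mouse and MI replicate 2 was within the sham range. The MI mice differed from the sham mice by a log2 fold change of -0.69 (SE 0.27, limma, adjusted p = 0.114), and -0.98 without MI replicate 2 (SE 0.15, adjusted p = 0.000936). Without MI replicate 1 the value was -0.41 (adjusted p = 0.339). Its share of the FPKM of the 3 creatine kinases ran from 63.6% to 67.3% in sham mice and was 65.7%, 65.1% and 67.8% in MI mice. The log2 ratio of Ckmt2 to Ckm differed by 0.096 between the groups (exact p = 0.343, adjusted 0.392), and its values overlapped. This difference was 0.39 under quantile normalization, and leaving out 1 mouse gave 0.036 to 0.16.

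**Figure D2:**
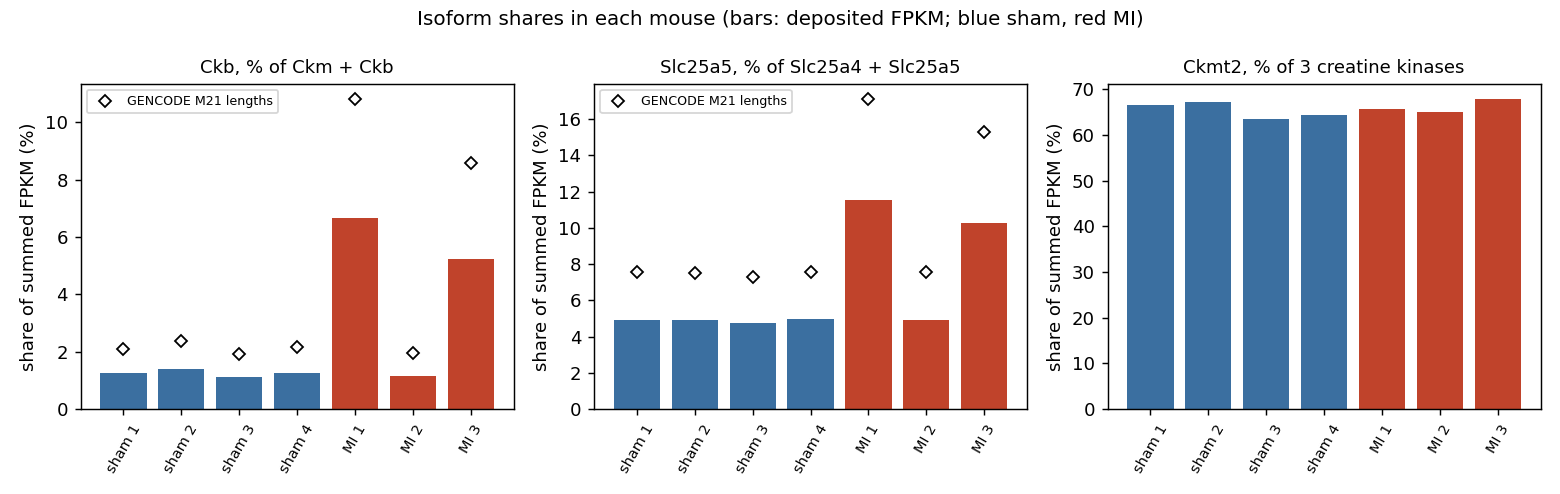
Share of Ckb in Ckm + Ckb, of Slc25a5 in Slc25a4 + Slc25a5 and of Ckmt2 in the 3 creatine kinases, in percent of summed FPKM, for each mouse. Bars use the deposited lengths and open diamonds the GENCODE M21 lengths, and MI replicates 1 and 3 stand above all sham mice in the first and second panels (Ckb 6.65% and 5.23%).

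The adenine nucleotide translocases exchange matrix ATP for cytosolic ADP. Slc25a4, the heart and muscle form (ENSMUSG00000031633, chr8:46206797-46211284, minus strand), stood at 1721, 1536, 1619 and 1526 FPKM in the sham mice and at 678, 1389.7 and 848 FPKM in the MI mice. Every MI mouse was below every sham mouse, MI replicate 2 by the smallest margin, at 86.8% of the sham mean. The log2 fold change was -0.78 (SE 0.25, limma, adjusted p = 0.108), and -1.08 without MI replicate 2 (SE 0.10, adjusted p = 9.9e-05).

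Slc25a5, the form found in many cell types (ENSMUSG00000016319, chrX:36795651-36798807, plus strand), showed no such difference. It stood at 89.4, 79.4, 80.4 and 79.4 FPKM in the sham mice and at 88.6, 72.3 and 96.8 FPKM in the MI mice, so the groups overlapped. Between the groups it differed by a log2 fold change of 0.055 (95% interval -0.24 to 0.35, limma, adjusted p = 0.743). Its sign was negative under quantile normalization, under median log-ratio scaling, without the mitochondrially encoded genes and without MI replicate 3, so no direction is given. Its processed pseudogene Slc25a5-ps was listed at a mean of 0.022 FPKM in sham mice.

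The share of Slc25a5 in the summed FPKM of both translocases was steady in the sham mice, at 4.94%, 4.91%, 4.73% and 4.95%. It was 11.6%, 4.94% and 10.2% in the MI mice, where replicate 2 lay inside the sham range. The within-mouse log2 ratio of Slc25a5 to Slc25a4 was higher in MI mice by 0.84 (exact p = 0.114, adjusted 0.366). With M21 lengths the share was 7.27% to 7.59% in sham mice and 17.1%, 7.58% and 15.3% in MI mice.

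The phosphate carrier and the outer membrane channel were lower in every MI mouse. Slc25a3, which brings phosphate into the matrix for ATP synthesis (ENSMUSG00000061904, chr10:91116574-91124059, minus strand), stood at 161, 156, 169 and 151 FPKM in the sham mice and at 86.7, 137 and 109.8 FPKM in the MI mice. Vdac1, the channel through which nucleotides and phosphocreatine cross the outer membrane (ENSMUSG00000020402, chr11:52360860-52389397, plus strand), stood at 265, 262, 266 and 261 FPKM in the sham mice and at 152, 232 and 189 FPKM in the MI mice. For neither gene did the groups overlap, and Vdac1 had the smallest spread of the 10 genes among sham mice, with a coefficient of variation of 0.97%. The log2 fold change was -0.54 for Slc25a3 (SE 0.16, limma, adjusted p = 0.108) and -0.48 for Vdac1 (SE 0.15, adjusted p = 0.108). Without MI replicate 2 these were -0.70 (adjusted p = 0.000697) and -0.63 (adjusted p = 0.000617). The within-mouse log2 ratio to Slc25a4 was higher in MI mice by 0.24 for Slc25a3 (exact p = 0.229, adjusted 0.366) and by 0.30 for Vdac1 (exact p = 0.171, adjusted 0.366). The sign of both ratio differences turned under quantile normalization.

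Slc6a8, the gene of the creatine transporter (ENSMUSG00000019558, chrX:73673150-73682502, plus strand), stood at 10.4, 16.2, 10.5 and 8.76 FPKM in the sham mice and at 21.9, 15.4 and 21.7 FPKM in the MI mice. Sham replicate 2 was well above the other sham mice and just above MI replicate 2, so the groups overlapped. The levels rest on 1726 to 3468 fragments per sham library and 4710, 3443 and 5050 fragments in the MI libraries. Slc6a8 had a log2 fold change of 0.75 (SE 0.22, 95% interval 0.24 to 1.25, limma, unadjusted p = 0.00994, adjusted p = 0.108), and 0.90 without MI replicate 2 (SE 0.21, adjusted p = 0.00636). It was the gene of the 10 with the largest spread in sham mice, a coefficient of variation of 28.4%. Relative to Ckm in the same mouse the log2 ratio was higher in MI mice by 1.53 (exact p = 0.114, adjusted 0.366).

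Ak1, the cytosolic adenylate kinase of muscle and brain (ENSMUSG00000026817, chr2:32621758-32635058, plus strand), stood at 90.2, 92.4, 81.8 and 80.9 FPKM in the sham mice and at 48.1, 70.4 and 54.1 FPKM in the MI mice. The groups did not overlap, and MI replicate 2 stood at 81.5% of the sham mean. Ak1 had the smallest unadjusted p of the 10 genes, 0.00448, with a log2 fold change of -0.59 (SE 0.15, limma, adjusted p = 0.108). Without MI replicate 2 the value was -0.75 (SE 0.083, adjusted p = 0.000221). The log2 ratio of Ak1 to Ckm differed by 0.19 between groups (exact p = 0.457, adjusted 0.457), and leaving out 1 mouse gave 0.025 to 0.39.

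Mb, the myoglobin gene (ENSMUSG00000018893, chr15:77015487-77050670, minus strand), varied most in absolute level among the sham mice. It stood at 1470.4, 2049, 1341 and 2039 FPKM in the sham mice and at 1109, 1215 and 1392 FPKM in the MI mice. Sham replicates 2 and 4 formed a higher pair, and MI replicate 3 lay between sham replicates 3 and 1. Its log2 fold change was -0.46 (SE 0.21, limma, adjusted p = 0.144), and leaving out MI replicate 2 left it at -0.45 (SE 0.20, adjusted p = 0.0847). Its size depended on the scaling, at -0.15 under quantile normalization, -0.26 under TPM, -0.60 without mitochondrially encoded genes and -0.67 under median log-ratio scaling. Unlike Ckm, Mb was not nearest to sham in MI replicate 2, which stood at 70.4% of the sham mean between 64.3% in MI replicate 1 and 80.7% in MI replicate 3. The within-mouse log2 ratio of Mb to Ckm was higher by 0.32 in MI mice (exact p = 0.343, adjusted 0.392), and leaving out 1 mouse gave 0.12 to 0.69.

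Marker genes were set beside Mb, since myoglobin is shared with skeletal muscle. The skeletal muscle genes Myh4 and Myod1 were listed at 0 in every mouse, and none of the 8 skeletal muscle genes was high enough to test, with sums of 0.72 to 1.11 FPKM in sham and 1.05 to 3.63 FPKM in MI mice. Tnnt3 of the same list went the other way, at 0.14 to 0.21 FPKM in sham mice and 1.88, 0.22 and 2.54 FPKM in the MI mice. The erythroid gene Hba-a1, an alpha globin of red cells, stood at 154, 142, 284 and 337 FPKM in the sham mice and at 922, 249 and 394 FPKM in the MI mice. Hba-a1 was high in sham replicates 3 and 4, and Mb in sham replicates 2 and 4. The part of blood or skeletal muscle in the level of Mb was not tested. The exons of Mb share 412 bases with the antisense gene Gm49540, listed at a mean of 26.7 FPKM in sham and 20.6 FPKM in MI mice, and 64 bases with Apol6. Whether strand was used in counting is not given in the sources used here, so reads of Mb and of these genes cannot be told apart in the shared bases.

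Over the 10 genes, 7 had a negative log2 fold change and 2 (Ckb and Slc6a8) a positive value, and Slc25a5 had no settled sign. None of the 10 passed at an adjusted p under 0.05 in limma over 7 mice, where 0.0262% of all genes tested did (3 of 11431). At an unadjusted p under 0.05, 6 of the 10 were lower in MI mice (Ckm, Ckmt2, Slc25a4, Slc25a3, Ak1 and Vdac1), against 9.85% of all genes tested, and 1 was higher (Slc6a8), against 29.5%. Without MI replicate 3 the count of lower genes was 3. The limma-voom test on recovered fragments also called 0 of the 10 at an adjusted p under 0.05. MI replicate 2 was inside the sham range for 3 of the 10 genes (Ckm, Ckmt2 and Slc6a8), against 49.4% of all genes tested, and below every sham mouse for 7, against 30.2%. The groups did not overlap for 4 genes that were lower (Slc25a4, Slc25a3, Ak1 and Vdac1), against 9.0% of all genes tested, and for 0 that were higher, against 16.1%. The median log2 fold change was -0.51 over the 10 genes and 0.21 over all genes tested, so a gene with no difference in FPKM stood below the typical gene. Without MI replicate 2, 6 of the 10 genes were lower at an adjusted p under 0.05 (the same 6 genes as above), against 14.7% of all genes tested, and 2 were higher (Ckb and Slc6a8), against 57.0%. The median of all genes tested was then 0.33, and the 2 genes that did not pass were Slc25a5 (adjusted p = 0.0693) and Mb. The within-mouse log2 ratios without that mouse were higher in MI mice by 2.21 for Ckb to Ckm, 2.04 for Slc6a8 to Ckm, 1.25 for Slc25a5 to Slc25a4, 0.69 for Mb to Ckm, 0.45 for Vdac1 to Slc25a4, 0.39 for Ak1 to Ckm, 0.37 for Slc25a3 to Slc25a4 and 0.16 for Ckmt2 to Ckm. With 2 against 4 mice the exact permutation p of a ratio, with the smaller tail doubled, cannot go below 0.133.

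**Figure D3:**
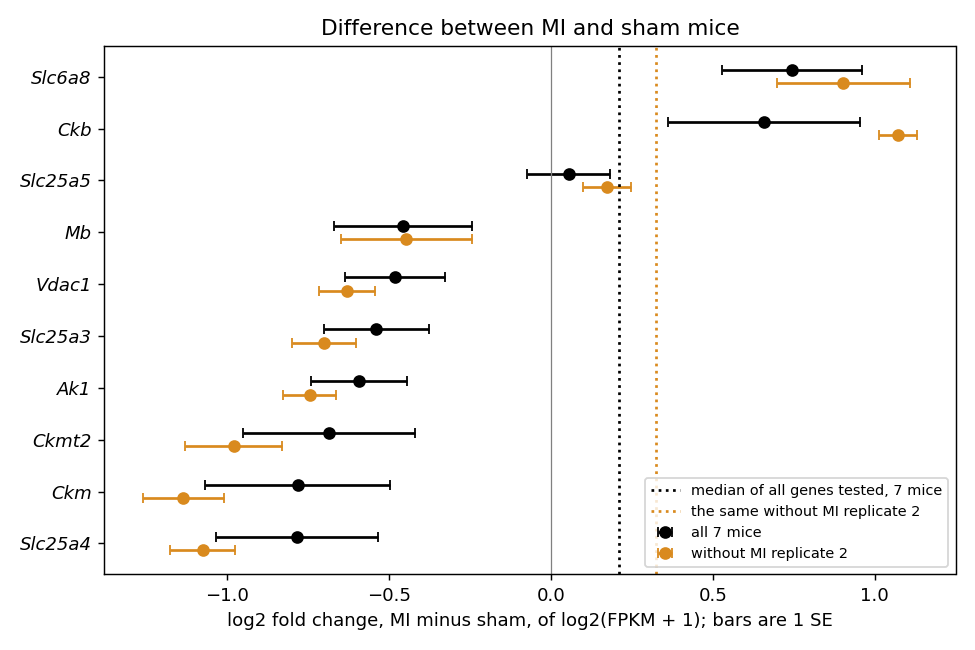
Log2 fold change (MI minus sham, horizontal axis) of the 10 genes on the log2(FPKM + 1) scale, with bars of 1 SE from limma. Black points use 7 mice, orange points leave out MI replicate 2, and dotted lines mark the median of all genes tested (0.21 and 0.33). Ckm and Slc25a4 lie farthest to the left and Slc6a8 and Ckb farthest to the right.

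The sum of the 10 genes ordered the MI mice as Ckm, Ckmt2 and Slc25a4 did. The 10 genes took 2.91%, 2.94%, 2.79% and 2.97% of the FPKM of nuclear genes in the sham mice, and 1.25%, 2.55% and 1.64% in the MI mice. No MI mouse reached the lowest sham value, with MI replicate 2 closest to it.

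The mean of the cardiomyocyte genes was lower as well in MI replicates 1 and 3, so each gene was also set against it. Of the 14 cardiomyocyte genes, 8 were lower in MI mice at an unadjusted p under 0.05, against 9.85% of all genes tested, 2 were lower without overlap between groups, against 9.0%, and 0 passed after adjustment. Their summed level was 18798 to 19987 FPKM in sham mice and 12003 to 18777 FPKM in MI mice. Each value below is the log2(FPKM + 1) of a gene minus the mean of these 14 genes in the same mouse, as a change from the sham mean, and is a description without a test.

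Against this reference the 10 genes fell into separate patterns. Slc25a4 was the single gene of the 10 whose groups were apart, at -0.39, -0.17 and -0.27 in MI replicates 1, 2 and 3 against -0.071 to 0.098 in sham mice, where 1.06% of all genes tested were apart and lower on this scale. Ckm stood at -0.50, -0.042 and -0.29, with sham mice from -0.14 to 0.088, so MI replicates 1 and 3 were below it and MI replicate 2 inside. Ckmt2 stood at -0.41, -0.067 and -0.071, where only MI replicate 1 was outside the sham range. These 3 genes nevertheless lie inside the spread of the single cardiomyocyte genes, whose log2 fold changes ran from -0.93 for Tnni3, a cardiac troponin, to 0.080 for Mybpc3, a myosin-binding protein.

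Slc25a3, Vdac1 and Ak1 stood on both sides of the reference in the MI mice. Slc25a3 stood at -0.028, -0.18 and 0.11, with sham mice from -0.043 to 0.076, so MI replicates 2 and 3 were outside that range on opposite sides. Vdac1 stood at 0.056, -0.15 and 0.17, with sham mice from -0.023 to 0.016, so MI replicates 1 and 3 were above it and MI replicate 2 below. Ak1 stood at 0.013, -0.26 and -0.021, with sham mice from -0.082 to 0.086, so only MI replicate 2 was outside. In each of these 3 genes MI replicate 2 was the lowest of all 7 mice. Mb stood at 0.23, -0.45 and 0.36 against -0.34 to 0.30 in sham mice, also with MI replicate 2 lowest.

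The remaining genes stood above the cardiomyocyte genes in MI replicates 1 and 3. Ckb was at 1.89, -0.13 and 1.74, Slc25a5 at 0.95, -0.15 and 0.88, and Slc6a8 at 1.75, 0.46 and 1.54. For Slc6a8, MI replicate 2 was near the highest sham mouse, at 0.48, and for the other two it was below every sham mouse.

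**Figure D4:**
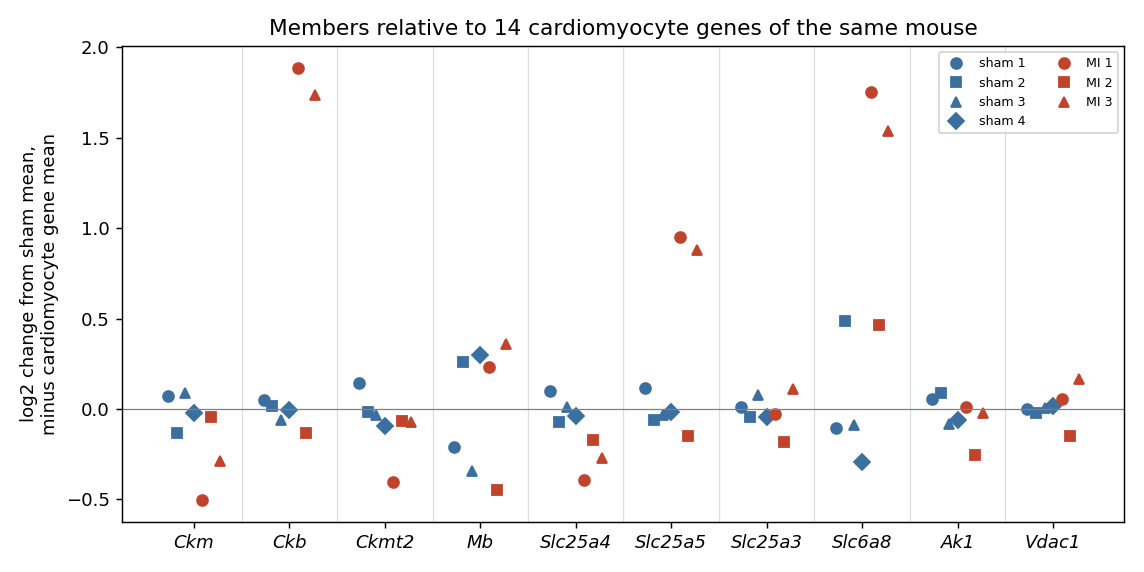
Log2(FPKM + 1) of each gene minus the mean of 14 cardiomyocyte genes in the same mouse, as a change from the sham mean (vertical axis), for sham mice in blue and MI mice in red, with 1 symbol per replicate number. Ckb (1.89 and 1.74), Slc6a8 (1.75 and 1.54) and Slc25a5 (0.95 and 0.88) stand high in MI replicates 1 and 3, and Slc25a4 lies below all sham mice in each MI mouse.

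A further 36 genes of energy transfer were taken as a list: creatine synthesis, other adenylate kinases, AMP deaminases, other nucleotide and acyl carriers, the other channels of the outer membrane, ATP synthase subunits, other globins and the AMP-activated kinase. Of these, 35 were found in the table and 26 were tested. None passed at an adjusted p under 0.05, and at an unadjusted p under 0.05, 6 of the 26 were lower in MI mice, against 9.85% of all genes tested, and 3 were higher, against 29.5%. The groups did not overlap for 6 that were lower, against 9.0% of all genes tested, and 1 that was higher, against 16.1%, and the median log2 fold change was -0.11. Without MI replicate 1 these unadjusted counts were 2 lower and 0 higher, and without MI replicate 3 they were 1 and 0. Without MI replicate 2, 9 of the 26 were lower at an adjusted p under 0.05, against 14.7% of all genes tested, and 10 were higher, against 57.0%.

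By level, the list was led by the ATP synthase subunits of the catalytic head. Atp5a1 stood at 691, 719, 721 and 700.4 FPKM in the sham mice and at 353, 716 and 436 FPKM in the MI mice (log2 fold change -0.56, SE 0.24, limma, adjusted p = 0.126), and without MI replicate 2 the log2 fold change was -0.85 (adjusted p = 0.000152). Atp5b stood at a mean of 616 ± 31.8 FPKM in sham and 489 ± 162 FPKM in MI mice (log2 fold change -0.38, limma, adjusted p = 0.203), and MI replicate 2, at 673 FPKM, was above every sham mouse. Atp5c1 stood at 161 ± 14.6 and 122 ± 38.4 FPKM (log2 fold change -0.45, limma, adjusted p = 0.158). Without MI replicate 2 the log2 fold change was -0.63 for Atp5b (limma, adjusted p = 0.000463) and -0.66 for Atp5c1 (adjusted p = 0.00945). As for Ckm and Ckmt2, these subunits were low in MI replicates 1 and 3 and within or above the sham range in MI replicate 2.

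The 2 largest positive values of the list were those of Tspo and Cygb. Tspo, an outer membrane protein that binds cholesterol, stood at 17.7, 19.2, 17.6 and 16.0 FPKM in the sham mice and at 102, 18.3 and 97.3 FPKM in the MI mice (log2 fold change 1.64, SE 0.56, limma, adjusted p = 0.108). Cygb, the globin of fibroblasts and related cells, stood at 29.2, 29.5, 28.2 and 28.6 FPKM in the sham mice and at 85.4, 27.2 and 84.9 FPKM in the MI mice (log2 fold change 0.99, SE 0.38, adjusted p = 0.113). Both genes stood high in MI replicates 1 and 3 and near the sham mice in replicate 2, and without that mouse the log2 fold change was 2.44 for Tspo (limma, adjusted p = 1.7e-06) and 1.53 for Cygb (adjusted p = 2.2e-06). Slc25a24, an ATP-magnesium and phosphate carrier, was the single gene among the 26 tested whose MI mice all stood above the sham mice, and is named after its values were seen: 1.94 to 2.43 FPKM in sham mice and 7.21, 2.46 and 5.98 FPKM in MI mice. Among the genes of the list too low to test, Ckmt1 and Ak5 also had every MI mouse above every sham mouse.

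The 2 most negative values of the list were those of Ak4 and Slc25a20. Ak4, a mitochondrial matrix adenylate kinase, stood at 6.45, 6.59, 0.73 and 8.15 FPKM in the sham mice and at 0.91, 0.69 and 5.69 FPKM in the MI mice. Its low values fell in both groups, with sham replicate 3 as low as MI replicates 1 and 2, and the log2 fold change of -0.97 had an SE of 0.70 (limma, adjusted p = 0.296), and without MI replicate 2 it was -0.61 (adjusted p = 0.495). Slc25a20, the acylcarnitine carrier of fatty acid oxidation, stood at 37.0, 35.9, 35.3 and 35.4 FPKM in the sham mice and at 16.2, 33.9 and 18.8 FPKM in the MI mice. Its groups were apart, with a log2 fold change of -0.69 (SE 0.23, limma, adjusted p = 0.108), and of -0.997 without MI replicate 2 (adjusted p = 3.1e-05).

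Creatine synthesis and the ubiquitous mitochondrial creatine kinase stood low in this tissue and are named after their values were seen. Gatm, which makes the creatine precursor, had a mean of 1.10 ± 0.17 FPKM in sham and 2.45 ± 1.53 FPKM in MI mice, and Gamt, which completes creatine, 1.55 ± 0.27 and 2.17 ± 0.80 FPKM. In MI replicates 1, 2 and 3 Gatm stood at 3.77, 0.78 and 2.80 FPKM and Gamt at 2.62, 1.24 and 2.65 FPKM. The log2 fold change was 0.60 for Gatm (limma, adjusted p = 0.172) and 0.29 for Gamt (adjusted p = 0.267). Without MI replicate 2 these were 1.02 (limma, adjusted p = 0.000244) and 0.52 (adjusted p = 0.00409). Ckmt1 was under 0.05 FPKM in every sham mouse and at 0.17, 0.18 and 0.26 FPKM in the MI mice, below the level at which genes were tested.

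**Figure D5:**
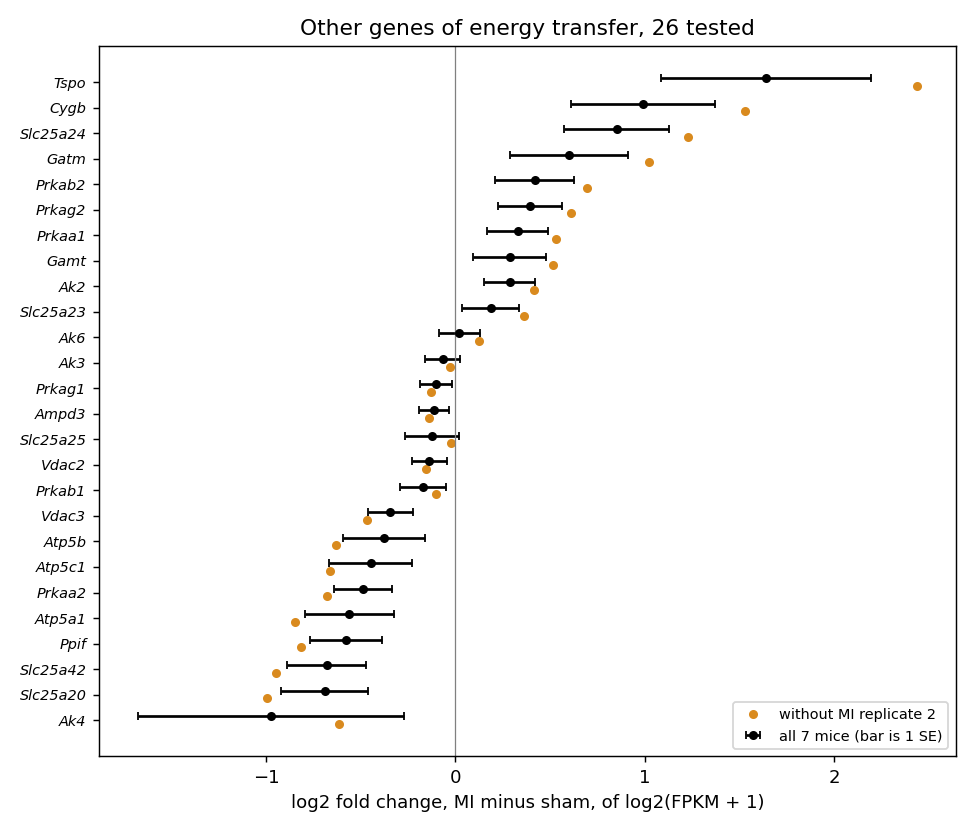
Log2 fold change (MI minus sham, horizontal axis) on the log2(FPKM + 1) scale for the 26 tested genes of the wider energy transfer list, black with 7 mice (bars of 1 SE) and orange without MI replicate 2. Tspo (1.64) and Cygb (0.99) lie farthest to the right and Ak4 (-0.97, with the widest bar) farthest to the left.

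Genes whose values followed a member most closely over the 7 mice were found by the root mean square difference of their log2(FPKM + 1) changes from the sham mean. For Ckm these were Eno3, the muscle form of enolase (0.050), Sord, sorbitol dehydrogenase (0.066), and Acadvl, an acyl-CoA dehydrogenase of the mitochondrion (0.068). In MI replicates 1, 2 and 3 Eno3 stood at -1.34, -0.029 and -0.89, beside -1.35, -0.075 and -0.93 for Ckm. For Ckb they were Disp1 (0.043), Rpl41 (0.049) and Papss1 (0.051), all 3 with MI replicate 2 below the sham mean. For Slc25a5 they were Bloc1s5 (0.041), Ergic2 (0.042) and Fez2 (0.042).

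No gene came as close to Slc6a8. The nearest were Rpl37a (0.136), Ninj1 (0.152) and Gm28151 (0.154), and each of these shared its higher value in sham replicate 2 and its intermediate value in MI replicate 2. Ninj1 stood at 0.26 in sham replicate 2 and at 0.93, 0.45 and 0.66 in the MI mice, beside 0.50 and 0.91, 0.43 and 0.90 for Slc6a8. These distances describe 7 mice that fall into few levels, and how many genes share such a pattern was not counted.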

How the data were processed

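Myocardial RNA of 7 mice (4 sham, 3 MI, grouped by the treatment in the sample labels) was sequenced. The authors deposited FPKM values for 56980 genes, in which fragments are divided by the library's depth and by the length of the gene. The submitters' processing notes name CASAVA 1.8, HISAT2, SAMtools 1.3.1, edgeR and the build mm10. The gene annotation, the counting program and the use of strand are not given in the sources used here. All columns were used (0 left unused), and 52073 identifiers (91.4%) had a symbol in the reference names.

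The 10 genes, the marker lists and the wider list were chosen with earlier results of these data known. The test was limma 3.58.1 (R 4.3.3) on log2(FPKM + 1) for genes that reached an FPKM of 1 in 3 or more mice, with trend, two-sided, with Benjamini-Hochberg adjustment over all 11431 genes and a threshold of 0.05. Fold changes on this scale understate those of low genes. Within-mouse log2 ratios were tested by exact two-sided permutation in Python 3.11.15. The scripts were tested on simulated data. Depth and gene lengths were recovered from the steps of the values: fragments were whole, within 0.005 plus the rounding of the file, for 30503 of 30504 genes above 0. Lengths from 20 to 120000 bases were searched. For a gene above 0 in few mice some length can fit by coincidence, so this count does not check the lengths. Positions are those of GENCODE M21 on GRCm38, the assembly that mm10 names. Named genes were all 10 members. From the wider list they were, since none passed, the 4 with the largest mean FPKM and the 2 most positive and 2 most negative fold changes. For each of 4 members the 3 genes nearest in pattern were named. Protein sequences were not used here. The alternatives were a pseudocount of 0.1, other filters on low values, TPM, quantile and median log-ratio scaling, leaving out mitochondrially encoded genes, no trend, sample weights, a replicate block, voom on recovered fragments and leaving out each mouse. M21 lengths were added after seeing the data.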

Additional observations from a re-analysis of the deposited data

Results flagged for a closer look

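Among the sham mice, 18 sets of 4 values (the 10 genes and the 8 log2 ratios) were examined for a mouse far from the others, and 2 stood out, where chance gives about 1 in 20 sets, or 0.9. Slc25a5 was 89.4 FPKM in sham replicate 1 and 79.4 to 80.4 FPKM in the other sham mice, so the gap made up 0.891 of the range. The log2 ratio of Slc6a8 to Ckm was -5.21 in sham replicate 2 and -6.10 to -6.00 in the other sham mice, a gap of 0.892 of the range. Without sham replicate 2 the ratio differed between MI and sham mice by 1.73 (exact p = 0.10, the smallest that 3 against 3 mice allow), and with it by 1.53.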

How the results depend on the processing

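Over the fits that leave out 1 mouse, 0 to 8 of the 10 genes passed at an adjusted p under 0.05, and any call came only without MI replicate 2. At an unadjusted p under 0.05, 3 (without MI replicate 3) to 6 were lower and 1 to 2 (without MI replicate 2) higher. In the wider list the ranges were 0 to 19 at an adjusted p, 1 to 9 lower and 0 to 10 higher, with the highest counts without MI replicate 2 and 1 lower without MI replicate 3. Of 180 log2 fold changes of the 10 genes under alternatives, 158 kept their direction and their side of the threshold, 18 passed it (8 without MI replicate 2 and 10 with sample weights) and 4 changed sign. All 4 were of Slc25a5: -0.12 under quantile normalization, -0.15 under median log-ratio scaling, -0.087 without mitochondrially encoded genes and -0.035 without MI replicate 3, the lowest of the fits that leave out a mouse, whose highest was 0.17. Of 72 ratio values 70 kept their direction (the block leaves a ratio at its value without sham replicate 4 and is not counted), and quantile normalization turned Slc25a3 to Slc25a4 to -0.14 and Vdac1 to Slc25a4 to -0.051. Values that moved by over 1.5 times included, under TPM, Mb (-0.26), Slc25a3 (-0.34), Vdac1 (-0.28) and Slc25a5 (0.25), and under quantile normalization Ckb (0.42), Mb (-0.15) and the ratios of Ckmt2 (0.39), Mb (0.72) and Ak1 (0.060) to Ckm and of Slc25a5 to Slc25a4 (0.47), and under sample weights Ckb (1.10), Mb (-0.28) and Slc25a5 (0.24). Leaving out 1 mouse moved Ckm over -1.14 to -0.50, Ckmt2 over -0.98 to -0.41 and the ratio of Ckmt2 to Ckm over 0.036 to 0.16. The cause was not tested. Over all alternatives the adjusted p ran from 4.5e-07 to 0.335 for Ckm, 7.7e-08 to 0.393 for Ckb, 2.0e-06 to 0.339 for Ckmt2, 0.0296 to 0.568 for Mb, 1.6e-07 to 0.335 for Slc25a4, 0.000216 to 0.911 for Slc25a5, 1.4e-06 to 0.335 for Slc25a3, 0.000128 to 0.335 for Slc6a8, 6.6e-07 to 0.335 for Ak1 and 8.7e-07 to 0.335 for Vdac1. For each gene the lowest adjusted p was that of the sample weights. Sample weights gave 10 of the 10 genes at an adjusted p under 0.05 (3 higher at an unadjusted p) and 23 genes of the wider list (11 lower, 12 higher at an unadjusted p). That estimate did not converge and gave MI replicate 3 a weight of 437 against 1.32 or less for every other mouse. TPM gave 2 genes higher at an unadjusted p and 5 of the wider list. In the wider list 12 were lower at an unadjusted p under quantile normalization and 13 under median log-ratio scaling. Shared replicate numbers gave no clear sign of pairing: across genes, the deviations of same-numbered mice correlated at 0.074, -0.016 and -0.080. The highest correlation with another sham mouse was 0.018, 0.068 and 0.081 in turn. Such small values in few mice do not settle whether the mice were paired. With a replicate block over 6 mice, 0 of the 10 genes passed at an adjusted p, 1 was lower and 0 higher at an unadjusted p, and 3 of the wider list were lower. The same mice without the block, which is the fit without sham replicate 4, gave 4 lower and 1 higher. Each gene rests on at least 981 fragments per library.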
